A study of Mus musculus with 63 samples.

Results

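Of 63 arrays in the series, 20 are untreated Eµ-myc lymphomas at either end of an interferon score: the 10 native lymphomas in which interferon-induced genes were highest and the 10 in which they were lowest, out of 32 native arrays. The score is the mean of Ifit1, Irf7, Oasl2 and Usp18, after centring each gene on the mean of native arrays labelled from the same amount of RNA. Isg15 belongs to the same rule and had no probe set with a single gene symbol, so 4 of the 5 genes were used. All values are log2 expression, so a difference of 1 is a doubling of signal on the array.

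The arrays measured RNA from lymphomas that arise in C57BL/6 mice carrying a Myc transgene under the immunoglobulin heavy-chain enhancer (Emu-myc transgenic), a model of aggressive B-cell lymphoma. Every array carried this genotype and strain, and cells were taken from lymph nodes without purification, so RNA of other lymph node cells was measured with that of the lymphoma. The 32 native arrays were untreated by label; the other 31 arrays, labelled CTX 4h, came 4 h after cyclophosphamide, a DNA-alkylating drug, at 300 mg/kg where a dose was stated (29 arrays). The labels give no age or sex, do not settle if native lymphomas grew in transgenic mice or in transplant recipients, and tie no array to a mouse of its own. A p-value here therefore weighs a difference against the spread between arrays, part of which may be technical. The high and the low group each held 4 arrays labelled from 100 ng of RNA and 6 labelled from 300 ng.

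Interferons are secreted proteins that alert cells to infection and shape immune responses. Type I interferons (the Ifna family and Ifnb1) signal through the receptor chains Ifnar1 and Ifnar2 and the kinases Jak1 and Tyk2 to a complex that holds Stat2 and Irf9 and binds a promoter element called the ISRE. Type II interferon (Ifng), made mainly by T cells and natural killer (NK) cells, signals through its own receptor, Jak1 and Jak2 to factors that bind the GAS element. Both induce overlapping sets of antiviral genes, guanylate-binding proteins, chemokines and antigen-presentation genes, and in a lymph node plasmacytoid dendritic cells are a known source of type I interferon.

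The promoters of 7 genes described below are shown because they hold the core of the ISRE, GAAANNGAAA (read on either strand, so also as TTTCNNTTTC, in capitals), within 250 bases before an annotated start of the gene. They represent antiviral effectors (Ifit3, Oas3, Slfn5, Rsad2), a chemokine (Cxcl10), a guanylate-binding protein (Gbp5) and a lymphocyte receptor gene (Gpr18).
Ifit3: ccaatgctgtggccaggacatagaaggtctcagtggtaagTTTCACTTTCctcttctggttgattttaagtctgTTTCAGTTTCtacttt
Oas3: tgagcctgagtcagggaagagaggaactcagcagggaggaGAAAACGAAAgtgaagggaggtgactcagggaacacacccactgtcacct
Slfn5: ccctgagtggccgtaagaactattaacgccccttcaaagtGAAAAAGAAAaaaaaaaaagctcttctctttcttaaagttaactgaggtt
Rsad2: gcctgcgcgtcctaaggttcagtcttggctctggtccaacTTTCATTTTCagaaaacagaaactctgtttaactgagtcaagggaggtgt
Cxcl10: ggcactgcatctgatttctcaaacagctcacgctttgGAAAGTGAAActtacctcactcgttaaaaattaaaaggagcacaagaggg
Gbp5: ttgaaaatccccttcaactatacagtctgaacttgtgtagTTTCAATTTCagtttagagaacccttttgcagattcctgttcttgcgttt
Gpr18: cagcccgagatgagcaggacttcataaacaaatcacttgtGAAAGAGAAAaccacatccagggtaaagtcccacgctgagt
The windows are RefSeq sequence of assembly GRCm38.p6, written in the direction of the gene. They lie at chr19:34583333-34583422 (plus strand), chr5:120777685-120777774 (minus strand), chr11:82951907-82951996 (plus strand) and chr12:26456523-26456612 (minus strand). Those of the other genes lie at chr5:92349053-92349139 (minus strand), chr3:142496729-142496818 (plus strand) and chr14:121915889-121915969 (minus strand). The core was found in 3.4% of the 15611 tested genes with a RefSeq promoter. It was found in 16 of 38 antiviral effectors (42.1%), in 4 of 4 guanylate-binding and related GTPases and in 8 of 14 interferon genes themselves (57.1%). Rtp4, Oas2 and Parp12 were not among the 16. In the other interferon lists it was in 1 of 14 sensors, 1 of 14 class I genes and 0 of 8 receptors and kinases. It was also in 2 of 8 transcription factors, 2 of 7 secreted and surface products and 1 of 5 inhibitors. T-cell markers held it in 0 of 11 and NK-cell and cytotoxic markers in 2 of 10, counts too small to compare. Among the 30 promoters of genes called higher in the high group, 6 held it, and among the 666 of genes that rose with the score after cyclophosphamide, 61 did (9.16%). The GAS letters TTCNNNGAA, short enough to occur often by their length alone, were in 7.71% of promoters and in 5 of the same 30 (16.7%). A match describes letters in this window, not a bound site.

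The score chose the arrays, so its genes are given as a description. Scores ran from 0.15 to 2.15 in the high group (median 0.82), from -1.03 to -0.53 in the low group (median -0.73) and from -0.28 to 0.12 in the 12 arrays between. Native replicate 7 was the last array inside the high group at 0.15, and the next one outside it lay at 0.12; the low group ended at -0.53 and the next array lay at -0.28. The high end was thus cut from a continuous run of arrays, while the low end was cut at a wider gap. Usp18, which removes Isg15 from proteins and restrains interferon signalling, averaged 9.11 ± 0.69 (SD, n = 10) in the high group and 7.31 ± 0.37 (SD, n = 10) in the low group. Irf7, the transcription factor that amplifies type I interferon, averaged 8.83 and 7.03, Ifit1 7.86 and 6.11, and Oasl2 8.45 and 7.14.

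**Figure D1:**
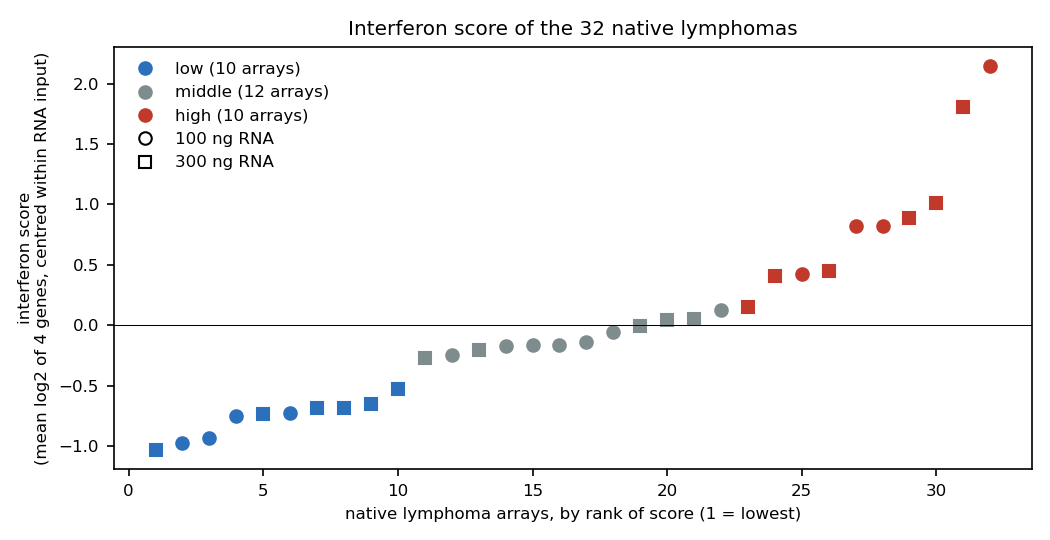
Interferon score (log2, mean of 4 genes centred within RNA input) of each of the 32 native lymphomas, ordered from lowest to highest; colour gives the group and shape the amount of RNA labelled. The 10 high arrays lie between 0.15 and 2.15 and the 10 low arrays between -1.03 and -0.53, and both groups mix 100 and 300 ng arrays.

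The quality of the arrays and the identity of the cells were looked at first. Array medians ranged from 6.53 to 7.11 over the series. Myc was equally high in both groups, from 13.05 to 13.71 in the high and from 12.93 to 13.70 in the low group. The 2 native arrays with far lower Myc, native replicates 4 and 25, fell among the 12 arrays between and entered no group. The B-cell receptor gene Cd79a lay between 11.56 and 12.99 in the high group, and in the low group at 11.81 or above in all arrays but native replicate 15, where it was 8.38. That lymphoma also had the highest Siglech of the 20 arrays (10.63), a marker of plasmacytoid dendritic cells, and the lowest mean of the pan-B-cell list (-1.39, each gene centred over all arrays). Its Ms4a1, another B-cell gene, was 9.65, inside the range of the other low arrays.

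High-score lymphomas, chosen by 4 interferon-induced genes, carried more of the antiviral programme and, with it, more T-cell and NK-cell RNA. Of 19934 genes tested with limma, 38 were higher in the high group (0.191%) and 1 was lower (0.00502%) at an adjusted p under 0.05. Of the 38, 12 belonged to the interferon lists and 26 did not. The 12 are given as a count only, because the arrays were chosen by genes of the same programme. Of the 26, 6 were on the T-cell and NK-cell lists. At an unadjusted p under 0.05, 987 genes were higher and 531 lower. Leaving out native replicate 15 gave 66 higher and 2 lower. Leaving out any 1 of 13 other arrays brought the higher count down by more than 1.5 times, to as few as 5 without native replicate 22, and without native replicates 7 or 13 it was 96 or 90. Arrays of 100 ng alone and of 300 ng alone (each 4 or 6 per group) gave 0 calls by limma, with 1049 and 614 genes higher at an unadjusted p under 0.05.

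Because the arrays were chosen by 4 genes of the interferon programme, the other interferon genes of the native comparison are described below without a p-value. Their relation to the score is tested by the slope of each gene on the same score in the 31 CTX 4h arrays, which the choice did not use. A slope there tells if a gene goes with the 4 score genes in other arrays. Ifit3 and the Oas genes are relatives of the score genes Ifit1 and Oasl2, and their probe sets may share signal with them. There the score ran from -1.50 to 2.41, and limma found 875 genes rising with it (4.39%) and 180 falling (0.903%), together 5.29% of genes. All 38 genes called higher in the native comparison were among the 875. Without CTX 4h replicate 31, the array with the highest score, 419 rose and 36 fell.

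The interferon genes themselves were not among the higher ones. Of 14 ligand genes measured, 3 had a positive difference, with a median difference of -0.06 against -0.02 over all genes. Ifnb1 ran from 4.87 to 5.24 (median 5.01) in the high group and from 4.86 to 5.67 (median 5.14) in the low group. Ifng ran from 5.93 to 7.1 (median 6.11) in the high group and from 5.92 to 6.55 (median 6.27) in the low group. Ifna13 lay between 3.85 and 4.60 and between 4.05 and 5.10. The groups overlapped for each of these 3 genes. After cyclophosphamide 0 of 14 ligand genes rose or fell with the score by limma, and 0 did so at an unadjusted p under 0.05. Ifnb1, Ifng and Ifna13 averaged below every array's median, and the authors' summary method compresses differences of dim probe sets.

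Receptors and kinases differed little in native lymphomas, with a median difference of 0.01 over 9 genes. Ifnar1 averaged 9.62 ± 0.25 (SD, n = 10) and 9.67 ± 0.38 (SD, n = 10), and Ifnar2 10.12 ± 0.28 and 10.11 ± 0.51. Tyk2 differed by -0.06 ± 0.17 (SE). The largest difference was in Jak1, shared by both interferon types, at 0.49 ± 0.17 (SE), and all 10 high arrays lay above the median of the low group. After cyclophosphamide 3 of the 9 rose with the score by limma: Ifngr1, a chain of the type II receptor, by 0.32 ± 0.07 per unit of score (SE, adjusted p = 0.0024), Jak1 by 0.29 ± 0.08 (adjusted p = 0.0169) and Jak2 by 0.39 ± 0.11 (adjusted p = 0.0223).

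Among transcription factors, Irf9, the DNA-binding partner of the STATs, ran from 8.12 to 9.29 (median 8.76) in the high group and from 7.44 to 8.82 (median 7.95) in the low group. The groups overlapped: native replicates 2, 5 and 15 of the low group lay above the lowest high array, native replicate 13, and native replicate 15 was the low array of 8.82. Its difference was 0.76 ± 0.15 (SE). Stat2 differed by 0.49 ± 0.15, Stat3 by 0.38 ± 0.11 and Irf1, a factor strongly induced by type II interferon, by 0.62 ± 0.16, whereas Irf5 differed by 0.20 ± 0.16. In CTX 4h arrays 4 of 9 factors rose by limma: Irf9 by 0.54 ± 0.05 (SE, adjusted p = 1.86e-08), Stat2 by 0.38 ± 0.06 (adjusted p = 1.04e-04), Stat3 by 0.30 ± 0.07 (adjusted p = 0.00632) and Irf1 by 0.34 ± 0.09 (adjusted p = 0.013).

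Sensors of foreign nucleic acid, themselves interferon-induced, were higher in the high group in 16 of 18 genes, with a median difference of 0.36. Zbp1, a sensor of Z-form nucleic acid, ran from 7.21 to 9.58 (median 8.05) in the high group and from 6.57 to 7.40 (median 7.01) in the low group. In 9 of 10 high arrays it lay above every low array; the exception was native replicate 7. The RNA sensors Ddx58 (RIG-I), Ifih1 (MDA5) and Dhx58 (LGP2) differed by 1.02 ± 0.24, 0.82 ± 0.18 and 0.87 ± 0.15 (SE), Tlr3 by 0.50 ± 0.16 and the kinase Ikbke by 0.65 ± 0.20. After cyclophosphamide 10 of the 18 rose by limma, among them Zbp1 by 0.71 ± 0.06 per unit of score (adjusted p = 1.02e-09), Ifih1 by 0.51 ± 0.06 (adjusted p = 4.50e-06) and Dhx58 by 0.58 ± 0.08 (adjusted p = 1.27e-05).

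Antiviral effectors, the proteins that block viral replication, made up the largest interferon list, and 47 of 49 were higher in the high group, against 41.7% of all genes. Their median difference was 0.58. Rtp4, a chaperone induced by interferon, ran from 7.19 to 9.19 (median 7.95) in the high group and from 5.79 to 6.67 (median 6.31) in the low group. The groups did not overlap, and the fold was 3.31. Ifit3, which binds viral RNA complexes, ran from 7.86 to 10.08 (median 8.43) against 6.08 to 7.51 (median 6.95), also without overlap, with the same fold. Oas2, an oligoadenylate synthetase that activates RNA decay, ran from 7.53 to 9.58 (median 8.20) against 6.5 to 7.42 (median 7.13). Parp12, an ADP-ribosyltransferase, ran from 8.06 to 8.91 (median 8.38) against 7.27 to 7.87 (median 7.56). These 4 were the only genes of the 19934 whose groups did not overlap (0.0201%). Parp12, Oas3, Rsad2 and Ifi213 are named here because of their values.

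In other effectors the groups overlapped. Slfn5, a schlafen protein that restrains viral transcription, ran from 8.35 to 10.05 (median 8.88) in the high group and from 7.27 to 8.55 (median 7.88) in the low group. Slfn8 differed by 1.09 ± 0.33 (SE), with a low-group value of 9.49 in native replicate 15. Epsti1 differed by 1.11 ± 0.30, Oas3 by 0.96 ± 0.16 and Rsad2 (viperin) by 0.81 ± 0.18. In CTX 4h arrays all 49 effectors had a positive slope, against 38.7% of all genes, and 35 rose by limma. The slope was 1.16 ± 0.07 per unit of score for Ifit3 (SE, adjusted p = 1.66e-12), 1.03 ± 0.09 for Rtp4 (adjusted p = 1.29e-09), 0.79 ± 0.10 for Oas2 (adjusted p = 7.11e-06) and 0.84 ± 0.07 for Slfn5 (adjusted p = 1.29e-09). The DNA-binding gene Ifi213, which is not on the list, had a slope of 1.14 ± 0.09 (adjusted p = 1.02e-09).

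**Figure D2:**
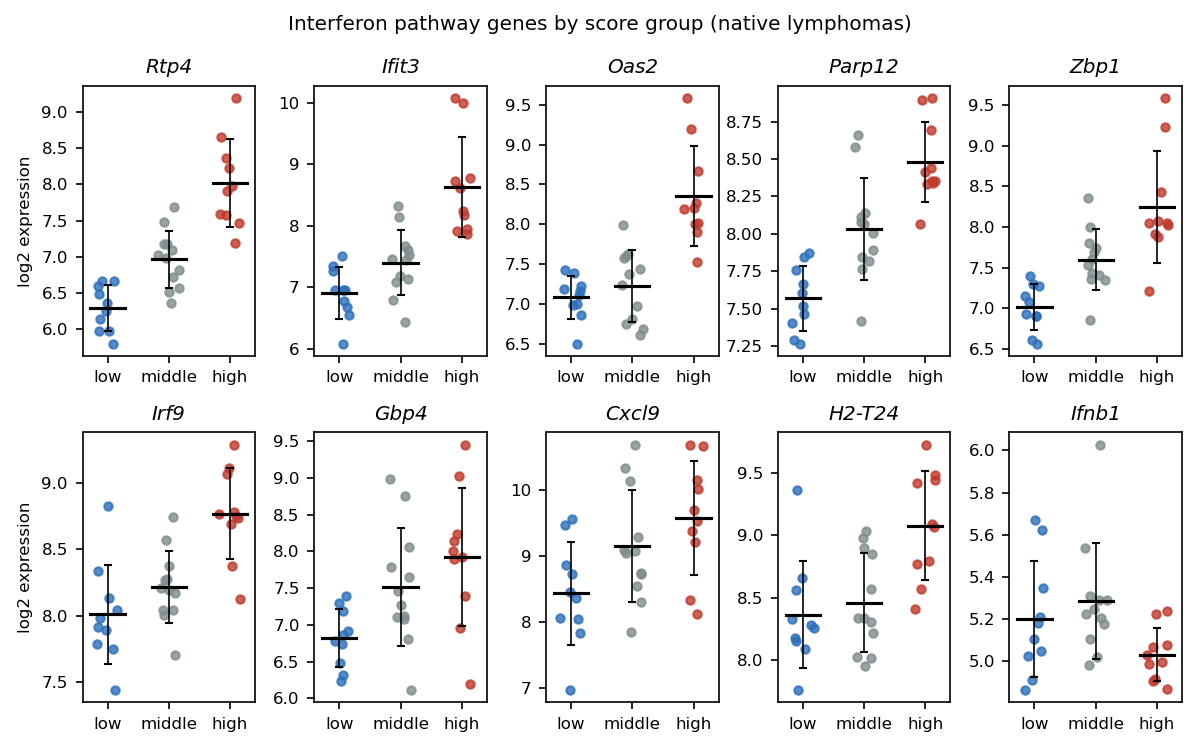
Log2 expression of 10 interferon pathway genes in low, middle and high native lymphomas (10, 12 and 10 arrays); points are arrays, bars the mean and whiskers the SD. Rtp4, Ifit3, Oas2 and Parp12 separate the high from the low arrays completely, Gbp4, Cxcl9 and H2-T24 overlap, and Ifnb1 is no higher in the high group.

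The guanylate-binding and immunity-related GTPases, which attack the membranes of intracellular pathogens and are classic targets of type II interferon, had the highest median difference of the interferon lists, 0.86. All 8 measured members were higher in the high group. Gbp4 ran from 6.20 to 9.45 (median 7.97) against 6.23 to 7.39 (median 6.82), so the lowest array of the 20 was a high-score one, native replicate 7. Gbp7 differed by 1.07 ± 0.26 (SE), Gbp9 by 0.98 ± 0.24, Gbp8 by 0.87 ± 0.20, Gbp5 by 0.86 ± 0.21 and Gbp3 by 0.77 ± 0.22. With the score after cyclophosphamide 7 of 8 rose by limma, with Gbp4 at 0.71 ± 0.12 per unit of score (adjusted p = 1.41e-04) and Gbp9 at 0.61 ± 0.09 (adjusted p = 2.70e-05). Gbp3 had a slope of 0.22 ± 0.13 (adjusted p = 0.426).

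Secreted and surface products were higher in 10 of 11 genes (median difference 0.59). Ccl5, a chemokine made by T and NK cells as well as by interferon-stimulated cells, ran from 9.33 to 12.99 (median 10.73) against 7.93 to 10.23 (median 9.08). It was above every low array in 8 of 10 high arrays. Cxcl9 and Cxcl10, which attract activated T cells, differed by 1.14 ± 0.31 and 0.73 ± 0.21 (SE), and both overlapped between the groups. Tnfsf13b, the B-cell survival factor BAFF, differed by 0.70 ± 0.20, Tnfsf10 (TRAIL) by 0.59 ± 0.27 and Cd274 (PD-L1) by 0.37 ± 0.14. After cyclophosphamide 5 of 11 rose by limma, among them Ccl5 by 0.99 ± 0.14 per unit of score (adjusted p = 2.54e-05), Cxcl9 by 0.89 ± 0.16 (adjusted p = 4.03e-04), Cxcl10 by 0.63 ± 0.10 (adjusted p = 5.64e-05) and Cd274 by 0.28 ± 0.06 (adjusted p = 0.00481). Tnfsf10 (adjusted p = 0.121) and Tnfsf13b (adjusted p = 0.0562) did not pass.

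Inhibitors and the measured genes of class I antigen presentation moved less. Of 6 signalling inhibitors, which feed back on the receptors, 5 were higher, with a median of 0.10, and 0 rose after cyclophosphamide by limma, 2 of them at an unadjusted p under 0.05. Socs1 ran from 8.01 to 8.42 (median 8.21) against 7.67 to 8.21 (median 7.93), and Socs3 differed by 0.42 ± 0.15 (SE). Of 18 class I genes measured, 15 were higher, with a median of 0.14. The classical class I genes H2-K1 and H2-D1 had no probe set with a single symbol and are not among them. The list also holds the chaperone genes Calr, Canx and Pdia3. H2-T24, a nonclassical class I gene, ran from 8.41 to 9.72 (median 9.08) against 7.76 to 9.37 (median 8.27), H2-Q4 differed by 0.56 ± 0.24, and the peptide transporter gene Tap1 by 0.26 ± 0.14. Nlrc5, the transactivator of class I genes, averaged 10.22 and 10.18. After the drug 6 of 18 rose by limma, with H2-T24 at 0.41 ± 0.08 per unit of score (adjusted p = 0.00117), Tap1 at 0.30 ± 0.07 (adjusted p = 0.00403) and Tapbp at 0.30 ± 0.07 (adjusted p = 0.00474), while Nlrc5 had 0.07 ± 0.08 (adjusted p = 0.74).

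The second feature of high-score lymphomas was lymphocyte RNA. All 15 T-cell markers were higher in the high group, with a median difference of 1.0, and 4 rose past the threshold. Cd3g, a chain of the T-cell receptor complex, ran from 7.72 to 11.53 (median 9.13) in the high group and from 5.92 to 8.41 (median 7.15) in the low group. It was above every low array in 8 of 10 high arrays, a difference of 2.12 ± 0.39 (SE, limma adjusted p = 0.027) and a fold of 4.34. Cd3e ran from 8.22 to 11.54 (median 9.70) against 7.23 to 9.27 (median 7.79), a difference of 1.67 ± 0.33 (adjusted p = 0.0404). Cd3d rose by 1.16 ± 0.24 (adjusted p = 0.047) and Icos, a costimulatory receptor of activated T cells, by 1.22 ± 0.25 (adjusted p = 0.0487). Each of these 4 overlapped between the groups, and in each all 10 high arrays lay above the low median. Of the 6 calls on the T-cell and NK-cell lists, 0 were left without native replicate 6, 16, 19, 22, 29 or 32. The count was also 0 with 14 against 14 arrays and within either RNA input. It was 0 with the leading digit of lymphoma numbers or the macrophage or pan-B-cell mean as a term. With the T-cell mean as a term it was 0 too, but Cd3d, Cd3e, Cd3g and Icos are part of that mean, so their loss says nothing further. In bulk samples more T cells and more T-cell RNA per cell cannot be told apart.

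NK-cell and cytotoxic genes followed, with all 11 measured higher and a median of 0.60. Nkg7, a protein of cytotoxic granules, ran from 7.31 to 11.28 (median 8.99) against 6.18 to 8.71 (median 7.38), a rise of 1.67 ± 0.33 (SE, limma adjusted p = 0.0404). Klrk1, which encodes the activating receptor NKG2D, was dim in both groups, from 4.88 to 6.12 against 4.51 to 4.94, and rose by 0.83 ± 0.15 (adjusted p = 0.0232). Klrd1 (CD94) differed by 1.33 ± 0.28 (adjusted p = 0.0569). Native replicate 24, a low-score array, held the highest low-group values of Cd3e (9.27), Nkg7 (8.71) and Klrd1 (6.94).

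The largest rises outside the interferon lists included further genes of lymphocytes. Dapl1, a gene expressed in T cells, ran from 7.82 to 11.64 (median 9.05) against 6.23 to 9.16 (median 7.1), a rise of 2.23 ± 0.37 (SE, limma adjusted p = 0.0176). Prkcq, the kinase downstream of the T-cell receptor, rose by 1.82 ± 0.32 (adjusted p = 0.0232), Cd96 by 1.80 ± 0.35 (adjusted p = 0.0404), Cd27 by 1.62 ± 0.31 (adjusted p = 0.0374) and Il2rb, a chain of the IL-2 and IL-15 receptors, by 1.53 ± 0.28 (adjusted p = 0.0251). Ms4a4b, a surface protein of T cells, ran from 6.92 to 9.54 (median 7.89) against 5.58 to 7.29 (median 6.18), a rise of 1.79 ± 0.28 (adjusted p = 0.0115). Its neighbours in the gene family, Ms4a4c and Ms4a6b, rose by 1.59 ± 0.30 (adjusted p = 0.0374) and 1.35 ± 0.28 (adjusted p = 0.0454), and the schlafen gene Slfn1 by 1.70 ± 0.30 (adjusted p = 0.0232). Members of these families, like the Gbp, Oas and H2 genes above, resemble each other in sequence, and their probe sets may share signal.

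Some of the 26 are not plain lymphocyte markers, and the interferon lists do not hold every interferon-induced gene. Trim30d, and Slfn1 above, have relatives on those lists (Trim30a, Slfn2, Slfn5 and Slfn8). A call among the 26 is therefore not by itself a finding independent of the score. Rnf213, a large ubiquitin ligase, ran from 9.46 to 10.90 (median 9.99) against 7.94 to 9.56 (median 8.85) and rose by 1.28 ± 0.22 (SE, limma adjusted p = 0.0219). The next ones were chosen after their values were seen. Trim30d rose by 1.01 ± 0.20 (adjusted p = 0.0374), Siglec1, a sialic-acid receptor of lymph node macrophages, by 0.78 ± 0.16 (adjusted p = 0.0497) and Gpr18, a receptor gene of lymphocytes, by 0.98 ± 0.20 (adjusted p = 0.0454). The gene that fell, Syce2, encodes a protein of the synaptonemal complex. It ran from 8.06 to 9.07 (median 8.56) in the high group and from 8.76 to 10.52 (median 9.44) in the low group, fell by 0.91 on the log2 scale (adjusted p = 0.0486), and its slope in CTX 4h arrays was -0.19 ± 0.12 (adjusted p = 0.50).

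**Figure D3:**
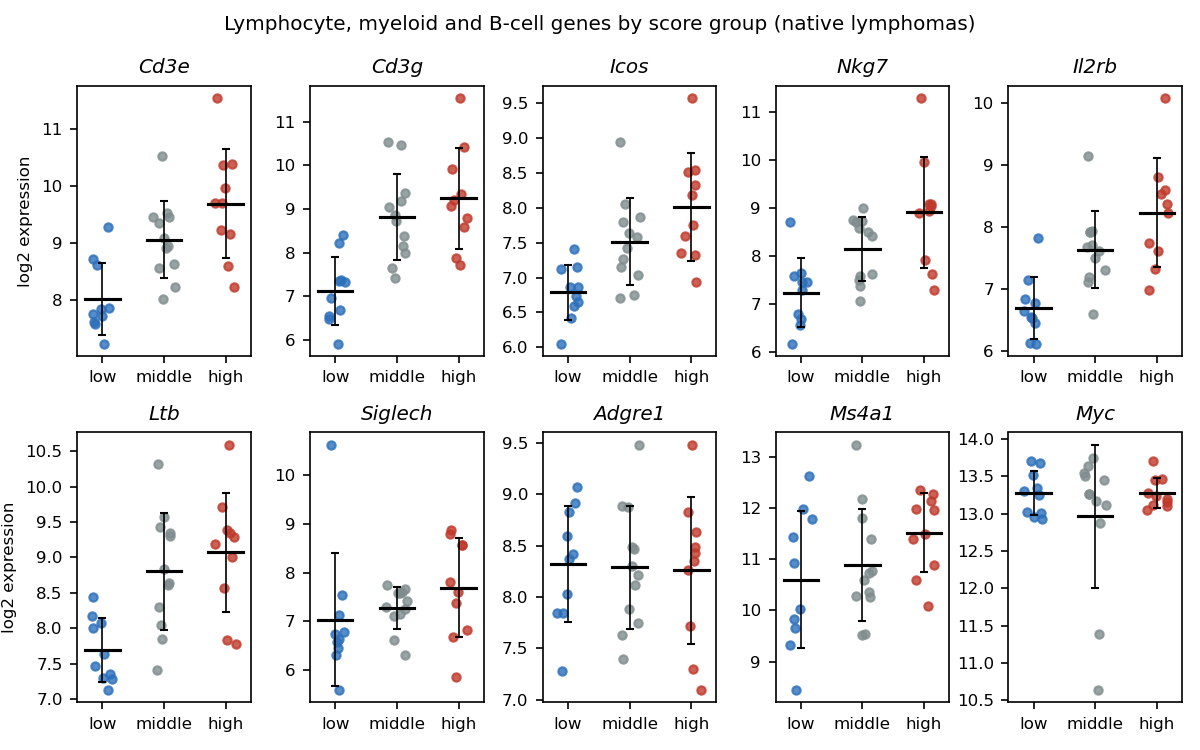
Log2 expression of genes of T cells (Cd3e, Cd3g, Icos), cytotoxic cells (Nkg7, Il2rb), mature lymphocytes (Ltb), plasmacytoid dendritic cells (Siglech), macrophages (Adgre1), B cells (Ms4a1) and of Myc in low, middle and high native lymphomas; points are arrays, bars the mean and whiskers the SD. T-cell and cytotoxic genes step up from low to high, Adgre1 and Myc do not, and one low array has a Siglech of 10.63.

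The CTX 4h arrays, not used in the choice, gave the same direction. There 14 of 15 T-cell genes and 5 of 11 NK-cell genes rose with the score by limma. Cd3g had a slope of 1.17 ± 0.16 per unit of score (SE, adjusted p = 2.02e-05), Cd3e 0.95 ± 0.13 (adjusted p = 1.42e-05), Il2rb 0.95 ± 0.10 (adjusted p = 3.06e-07) and Dapl1 1.15 ± 0.18 (adjusted p = 8.47e-05). Rnf213 had 0.75 ± 0.07 (adjusted p = 3.80e-08) and Ms4a4c 1.04 ± 0.11 (adjusted p = 6.53e-08).

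Other cell types had smaller median differences in native lymphomas. Of 16 macrophage markers, 9 were higher, with a median of 0.04, and 0 passed by limma, 3 of them at an unadjusted p under 0.05. Adgre1 (F4/80) averaged 8.26 ± 0.72 (SD, n = 10) and 8.32 ± 0.56 (SD, n = 10), whereas Csf1r differed by 0.60 ± 0.18 (SE, adjusted p = 0.227) and Timd4 by 0.72 ± 0.22 (adjusted p = 0.256). The mean of the macrophage list, each gene centred over all arrays, ran from -0.26 to 0.30 in the high and from -0.54 to 0.16 in the low group. Conventional dendritic cell genes were higher in 8 of 9 (median 0.38, 0 called, 3 at an unadjusted p under 0.05), with Xcr1 at 0.58 ± 0.19 (adjusted p = 0.331) and Clec9a at 0.55 ± 0.18 (adjusted p = 0.346). Plasmacytoid dendritic cell genes were higher in 9 of 10 (median 0.31, 0 called, 3 higher and 1 lower at an unadjusted p under 0.05). Ccr9 differed by 1.43 ± 0.33 (adjusted p = 0.0795), Siglech by 0.66 ± 0.50 (adjusted p = 0.818) and Cox6a2 by -0.94 ± 0.34 (adjusted p = 0.406), the only member that was lower. Native replicate 15, a low array, stood apart from the other low arrays in Siglech (10.63, next 7.54) and Ccr9 (7.99, next 6.45). All 12 neutrophil markers were higher (median 0.30, 0 called, 0 at an unadjusted p under 0.05), and so were 12 of 13 stromal and endothelial markers (median 0.27, 0 called, 6 at an unadjusted p under 0.05). With the score after cyclophosphamide, 7 of 13 stromal and endothelial, 5 of 9 conventional dendritic, 5 of 10 plasmacytoid dendritic and 2 of 16 macrophage markers rose by limma, and 0 of 12 neutrophil markers did, 1 of them at an unadjusted p under 0.05. The centred mean of the small RNA genes overlapped, from -1.53 to 0.49 in the high and from -1.68 to 0.75 in the low group. The lowest array of each group had a lymphoma number starting with 1. The high group held 2 arrays of that series and the low group 1.

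Genes of B-cell stage differed in mature markers. Of 11 mature B-cell markers 10 were higher, with a median of 0.88, all 10 at an unadjusted p under 0.05. By limma 1 passed the threshold, and 6 rose with the score after cyclophosphamide. The largest difference was in Fcer2a, 1.92 ± 0.48 (SE, limma adjusted p = 0.106), with a slope of 0.96 ± 0.18 in CTX 4h arrays (adjusted p = 5.8e-04). Ltb, which encodes lymphotoxin beta and is expressed by T cells as well, rose by 1.38 ± 0.25 (SE, limma adjusted p = 0.027). Ltb ran from 7.78 to 10.59 (median 9.24) against 7.13 to 8.44 (median 7.56). Ccr6 differed by 0.77 ± 0.20 (adjusted p = 0.134) and the costimulatory ligand Cd86 by 0.75 ± 0.18 (adjusted p = 0.0885); both rose in CTX 4h arrays, by 0.54 ± 0.09 (adjusted p = 2.01e-04) and 0.42 ± 0.12 (adjusted p = 0.0298) per unit of score. Pan-B-cell markers had a median of 0.11 and precursor B-cell markers of 0.13, each with 0 called. Ighm ran from 7.35 to 11.36 against 5.57 to 11.29 (adjusted p = 0.518), and Igll1, a gene of the surrogate light chain of precursor B cells, from 4.80 to 11.60 against 4.95 to 11.56. Both groups thus held arrays low and high in this precursor gene.

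Growth genes gave no call in native lymphomas. Myc differed by 0.00 ± 0.11 (SE, adjusted p = 0.997) and Cdkn2a by 0.14 ± 0.46 (adjusted p = 0.974). The medians were -0.01 for 20 targets of Myc, -0.01 for 22 genes of mitosis and -0.10 for 23 genes of DNA replication, with 0 called by limma in each and 1, 0 and 2 lower at an unadjusted p under 0.05. Class II presentation had a median of 0.05, with H2-Aa at 0.11 ± 0.20 (adjusted p = 0.947) and H2-Oa at 0.91 ± 0.26 (adjusted p = 0.198). In CTX 4h arrays all 20 Myc targets and all 22 mitosis genes had a negative slope, with medians of -0.12 and -0.24. Of all genes only 38.7% had a positive slope (median -0.02), so a negative slope was the common direction. Members of a list also move together. By limma 2 and 1 of these genes fell past the threshold. Under quantile normalization 1 of the Myc targets had a positive slope.

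**Figure D4:**
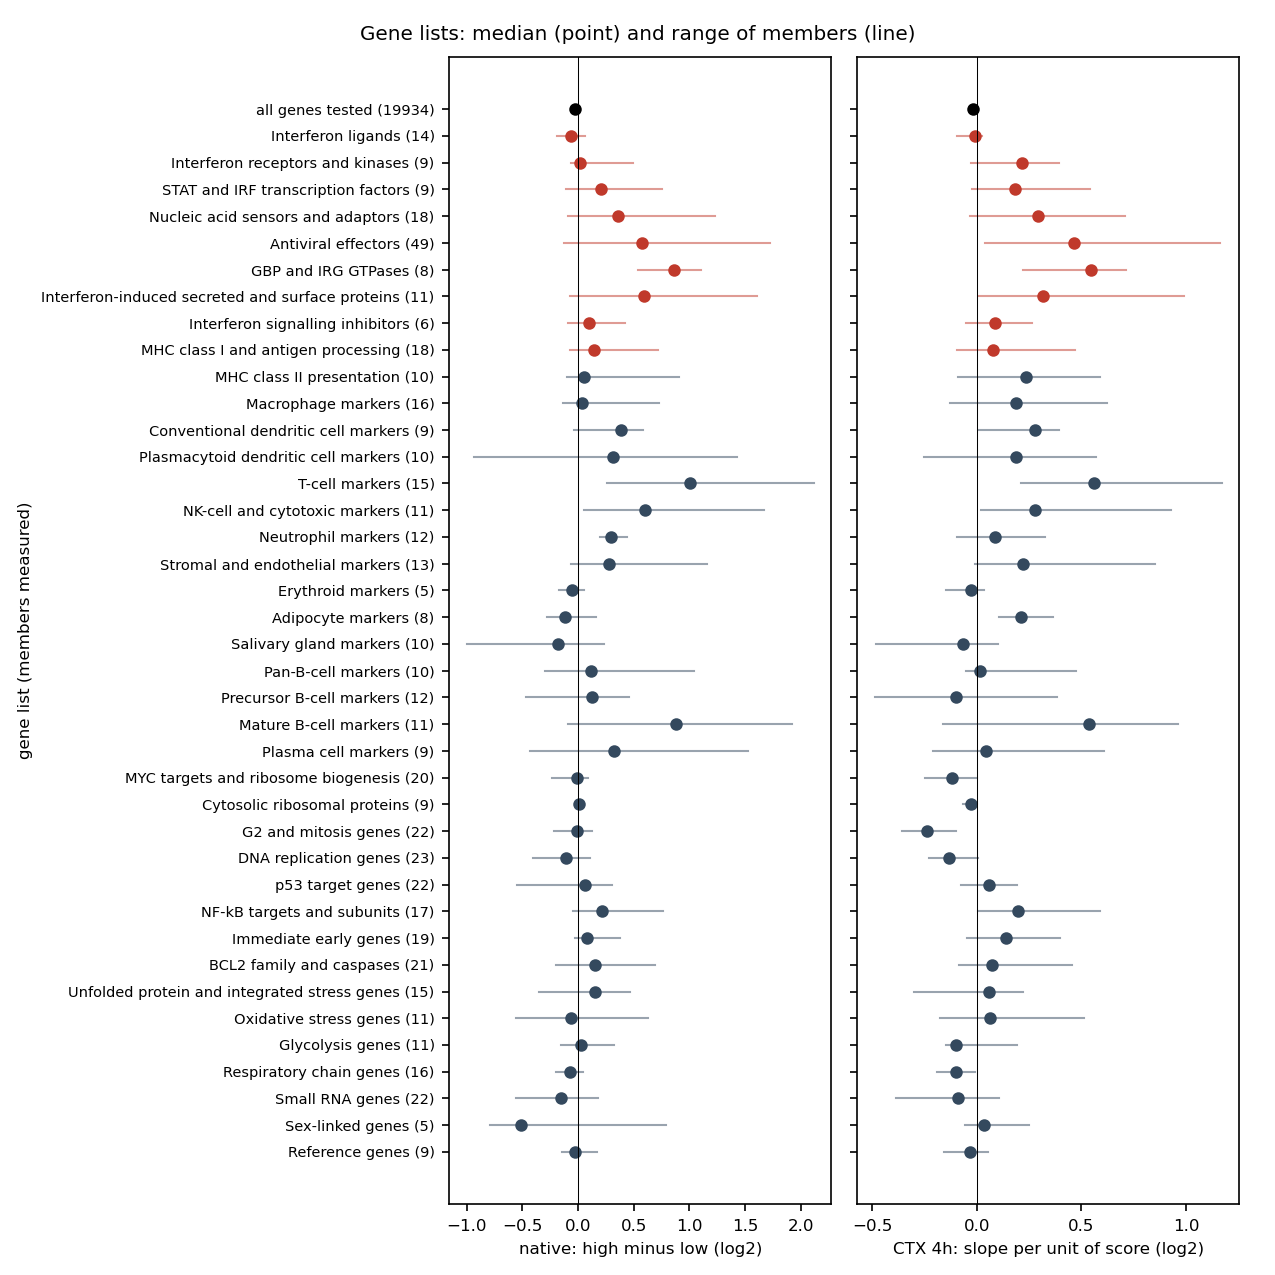
Median (point) and range (line) over the measured members of each gene list, for the log2 difference of high minus low native lymphomas (left) and the slope on the score in CTX 4h arrays (right); interferon lists are red, other lists blue, all 19934 genes black. The T-cell list lies furthest right on the left side at 1.0, next to the mature B-cell (0.88) and GTPase (0.86) lists, and interferon ligands lie at -0.06.

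T-cell RNA and the interferon score went together across arrays, so both were set in the same fit. The mean of the 15 T-cell genes, each centred over all 63 arrays, ran from -0.50 to 1.95 (median 0.55) in the high group and from -1.06 to 0.09 (median -0.52) in the low group. It was above every low array in 8 of 10 high arrays. The T-cell mean ran from -1.22 to 2.19 in CTX 4h arrays. With it as a further term, limma called 0 genes in the native comparison, with 182 higher and 454 lower at an unadjusted p under 0.05. The native difference of Rtp4 was then 1.17 ± 0.23 (SE), of Ifit3 1.26 ± 0.38, of Oas2 0.96 ± 0.24 and of Parp12 0.62 ± 0.14. The median of the antiviral list went from 0.58 to 0.20 and that of the GTPases from 0.86 to 0.16.

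The 31 CTX 4h arrays allowed more with the same term. There 20 genes rose with the score and 0 fell by limma (295 fell at an unadjusted p under 0.05), and 15 of the 20 were on interferon lists. Ifi206 and Ifi213, among the rest, have relatives on those lists (Ifi203, Ifi205 and Ifi207). Ifit3 kept a slope of 1.29 ± 0.12 per unit of score (SE, adjusted p = 1.3e-07), Rtp4 of 1.24 ± 0.14 (adjusted p = 5.4e-06), Oas2 of 1.19 ± 0.15 (adjusted p = 2.7e-05), Ifi213 of 1.19 ± 0.16 (adjusted p = 7.4e-05) and Irf9 of 0.59 ± 0.09 (adjusted p = 4.2e-04). The median slope of the antiviral list was 0.46 without and 0.44 with the term, and all 49 slopes were positive in both. That of the GTPases was 0.54 without and 0.28 with it, with 7 and 0 called, and Gbp4 had 0.22 ± 0.16. That of the secreted and surface products was 0.32 and 0.04, with Ccl5 at 0.21 ± 0.16 and Cxcl9 at 0.52 ± 0.26. Whether the effectors differ from the GTPases in this respect was not tested. Without CTX 4h replicate 17, an alternative added after that array's values were seen, 6 genes rose with the term: Ifi213, Ifit3, Oas2, Phf11d, Rsad2 and Rtp4.

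Single arrays show how far the score and T-cell RNA can part. CTX 4h replicate 17 had a score of 1.11 with a T-cell mean of -0.63; its Rtp4 was 9.40, Ifit3 9.43 and Oas2 9.94, with Cd3e at 8.16. Native replicates 7 and 13, in the high group, had T-cell means of -0.50 and -0.45, with Ifit3 at 8.24 and 8.61, above all low arrays, and Gbp4 at 6.20, below all low arrays, and 6.96, inside the low range. Native replicate 24, in the low group, had a T-cell mean of 0.09 and a Cd3e of 9.27 with an Rtp4 of 5.79, the lowest of the 20. Native replicate 30 and CTX 4h replicate 31 were highest in both measures, with scores of 2.15 and 2.41 and Cd3e of 11.54 and 11.73.

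**Figure D5:**
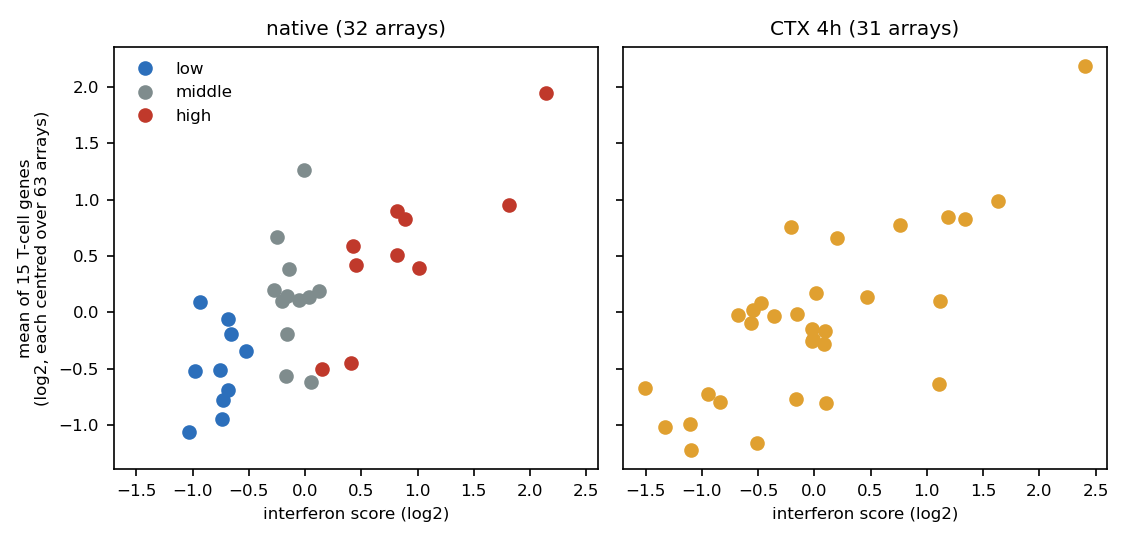
Mean of 15 T-cell genes (log2, each centred over 63 arrays) against the interferon score (log2) for the 32 native arrays, coloured by group, and the 31 CTX 4h arrays. Most arrays rise along both axes up to 1.95 and 2.19; 2 high native arrays lie near -0.5 on the T-cell axis, and 1 CTX 4h array pairs a score of 1.11 with -0.63.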

How the data were processed

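RNA was labelled from 100 or 300 ng and hybridised to Affymetrix arrays, per the labels' protocols. The authors deposited log2 expression per probe set. Per the submitters' processing notes they used Partek 6.5 and RMA, which subtracts background, puts arrays on a common scale and combines probes. The set of arrays normalized together is not given in the sources used; RMA compresses differences of dim genes. The number of arrays limits the precision.

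The platform annotation pairs 21789 of the 35557 probe sets with a single symbol, 1621 with several and 12147 with none; 21698 single symbols were found in RefSeq's GRCm38.p6 table by gene ID. For each of 19938 genes the probe set with a single symbol and the highest mean over the 63 arrays was kept, and 19934 were tested without the 4 score genes. Groups of 10 were cut by score, and the score in CTX 4h arrays was centred within RNA input in the same way.

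Differences and slopes came from limma 3.58.1 under R 4.3.3 (moderated linear models with RNA input as a term, two-sided, Benjamini-Hochberg adjusted over all genes tested, threshold 0.05). The model was tested on simulated data. The members, the 39 gene lists (617 entries, 545 measured), the rule for named genes and the other settings were chosen with earlier results of these data known. The rule names the 12 largest changes each way outside the interferon lists, 6 members of each interferon list by size of difference, up to 4 members of each other list by p, 12 genes called in both fits, and single genes of the pathway and of cell types. A synonym of another gene (Cd300e) was left out of a list. Promoters were searched as letters on both strands. Other settings were arrays of either RNA input, a term for the leading digit of lymphoma numbers, other group sizes, scalings, filters, variance models, array weights, cell-type scores as terms and leaving out single arrays.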

Additional observations from a re-analysis of the deposited data

Results flagged for a closer look

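Among the 188 groups of 10 arrays formed by the 94 genes examined, 10 held an array that stood apart from the other 9; chance gives about 1 in 20 groups. Native replicate 15, in the low group, gave 5 of them. Its Siglech was 10.63 with the next low array at 7.54, its Ccr9 7.99 (next 6.45), its Slfn8 9.49 (next 7.78) and its Gpr18 9.25 (next 8.48), all the highest of the low group, while its Cd79a of 8.38 was the lowest (next 11.81). Native replicate 24, also in the low group, had the highest Dapl1 at 9.16 (next 7.58) and the highest Klrd1 at 6.94 (next 5.91). In the high group, Ifnar2 was 10.73 in native replicate 30 (next 10.27), Ifng 7.1 in native replicate 21 (next 6.39) and Tlr3 7.98 in native replicate 17 (next 7.14).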

How the results depend on the processing

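The count of genes depended strongly on the setting. The named genes called in the native comparison kept their direction in every setting, but those not called did not all keep it. Cdkn2a differed by -0.76 within 100 ng arrays and by 0.74 within 300 ng arrays. Against 38 higher and 1 lower, native counts of higher and lower genes were 0 and 0 in 100 ng arrays alone, 0 and 0 in 300 ng arrays alone, 11 and 0 with a term for the leading digit of lymphoma numbers, 422 and 15 with 7 against 7 arrays, 3 and 0 with 14 against 14, and 308 and 4 with the score as a number over all 32 native arrays. Array weights gave 92 and 5. Lower genes were 0 at a common median and with the small RNA score as a term, 2 with quantile normalization and 2 without dim genes. With the macrophage score as a term 5 were higher (Dapl1, Ms4a4b, Oas2, Parp12, Rtp4) and 0 lower, with the pan-B-cell score 13 and 0, and with the T-cell score 0 and 0. Leaving out 1 array gave 5 to 96 higher and 0 to 5 lower: 14, 23, 18, 11, 12, 19, 8, 16, 6, 5, 10, 20 and 10 higher without native replicates 1, 2, 3, 6, 9, 14, 16, 17, 19, 22, 29, 30 and 32, and 96, 90 and 66 without 7, 13 and 15.

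Against 875 rising and 180 falling, CTX 4h counts were 426 and 73 with the macrophage score, 20 and 0 with the T-cell score, and 6 and 0 with the T-cell score when CTX 4h replicate 17 was left out. Falling genes were 665 with the small RNA score, 397 with the leading digit, 79 at a common median, 373 with quantile normalization and 279 with array weights. Leaving out 1 array gave 419 to 1014 rising and 36 to 326 falling; falling counts were 102, 111, 109, 115 and 326 without CTX 4h replicates 11, 13, 15, 16 and 17. With the T-cell score as a term, slopes turned in Cd3d (-0.0060), Siglech (-0.0092) and Themis (-0.011), and without CTX 4h replicate 17 also in Cd3d (-0.037), Cd3g (-0.049), Dapl1 (-0.050), Jak2 (-0.0087), Nkg7 (-0.0039) and Siglech (-0.011). Cd3d and Cd3g are members of the T-cell score, so that term removes part of their own signal. The causes of these shifts were not tested, and several of the fits also hold fewer arrays. No paired analysis was possible because replicate numbers follow accession order and the groups are cut by score. No depth is defined for arrays, and the dimmer interferon genes lie where differences are compressed.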

Other observations

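Lists outside the interferon and cell-type comparisons mostly showed small median differences between high- and low-score native lymphomas. The sex-linked list was an exception, with a median of -0.51 over 5 genes, 1 of them higher. Limma called 0 of the 5, and 1 was lower at an unadjusted p under 0.05. Eif2s3y of that list ran from 2.21 to 4.00 in the high group and from 3.79 to 7.46 in the low group. The labels give no sex, and a cause was not tested. Over all genes, 41.7% were higher in the high group and 38.7% had a positive slope after cyclophosphamide. Targets and subunits of NF-kB, a pathway of inflammatory signalling, were higher in 16 of 17 genes with a median of 0.21, and 17 of 17 had a positive slope on the score after cyclophosphamide, 2 of them past the threshold by limma. BCL2 family and caspase genes, which govern cell death, were higher in 17 of 21 (median 0.16), and 4 rose with the score after cyclophosphamide. Immediate early genes were higher in 15 of 19 (median 0.084), and 6 rose after cyclophosphamide. Genes of the respiratory chain were higher in 2 of 16 (median -0.069) and had a negative slope in 16 of 16 after cyclophosphamide, 1 past the threshold; under quantile normalization 2 of these slopes were positive. In the native comparison limma called 0 genes of the NF-kB, BCL2 and caspase, immediate early and respiratory chain lists. In that order, 6, 7, 1 and 0 of their genes were higher at an unadjusted p under 0.05.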
